A study of Mus musculus with 2 samples.

Results

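The tachykinin system of the amygdala was followed through 4 genes, chosen by name: Tac1 and Tac2, which encode the peptide precursors, and Tacr1 and Tacr3, which encode receptors. All 4 were found among the 32285 genes of the deposited tables. The data are single-nucleus RNA counts from the dissected amygdala of C57BL6/J mice aged 6 to 8 weeks, with 1 library from Sema6d-/- mice (KO) and 1 library from wild-type mice (WT). Sema6d encodes a membrane-bound axon guidance cue of the semaphorin family. The sources used here do not state how many animals of which sex went into a library, nor which part of Sema6d is missing. With 1 library per genotype there is no replicate check, so no difference was tested. Differences between the libraries cannot be told apart from differences between animals, dissections or preparations.

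Tachykinin peptides are cut from larger precursors, amidated at their end, packed into dense-core vesicles and released from neurons. Substance P and neurokinin A come from Tac1, and neurokinin B comes from Tac2. Substance P binds the receptor encoded by Tacr1 best and neurokinin B the one encoded by Tacr3, and both receptors signal through Gq proteins and phospholipase C. In the striatum and neighbouring nuclei Tac1 is known from spiny projection neurons with the dopamine receptor Drd1, and Tacr1 from cholinergic and from Nos1 interneurons.

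The coding stretches of the last 10 codons of the 3 peptides are shown because the genes are read out here as precursors, and 1 of them carries 2 peptides. The first codon of substance P lies before its line and is not shown. Each line gives 39 bases on the plus strand of GRCm38 from the GENCODE M21 transcripts, with the 5 codons of the shared end of the peptides in capitals, followed by the codons for the amidation and cleavage signal.
substance P, Tac1, chr6:7556735-7556773: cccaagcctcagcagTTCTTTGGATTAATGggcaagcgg
neurokinin A, Tac1, chr6:7559101-7559139: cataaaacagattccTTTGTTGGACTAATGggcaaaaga
neurokinin B, Tac2, chr10:127729116-127729154: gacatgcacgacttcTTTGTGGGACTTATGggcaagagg
Within the capitals, the stretches of neurokinin A and neurokinin B share 13 of 15 bases, and those of substance P and neurokinin A share 12 of 15. Of the 4 coding Tac1 transcripts in the annotation, Tac1-203 and Tac1-205 hold both peptide stretches, Tac1-201 holds the substance P stretch alone, and Tac1-204, annotated with 46 coding bases, holds neither. The kit reads the 5′ end of an RNA, so the counts do not separate these forms.

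On the same build, Tac1 (ENSMUSG00000061762) spans chr6:7554879-7565834 and Tac2 (ENSMUSG00000025400) spans chr10:127724478-127731768. The receptor genes are longer. Tacr1 (ENSMUSG00000030043) spans chr6:82402334-82560104, or 157771 bases, and Tacr3 (ENSMUSG00000028172) spans chr3:134829007-134934579, or 105573 bases. All 4 are protein-coding genes on the plus strand.

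After filtering, 7911 nuclei with 56736373 UMIs remained in the KO library and 10369 nuclei with 79305700 UMIs in the WT library. A UMI is the molecular tag that marks 1 captured RNA molecule. Neurons were sorted into 22 named gates, each defined by UMIs of marker genes and named by them, and none of the 4 genes was used in a gate. Neurons made up 4251 KO and 7013 WT nuclei, and 2306 KO and 1670 WT nuclei fell into 6 glial and vascular gates. Glia were thus 29.1% of nuclei in the KO library and 16.1% in the WT library. The median depth was 8635 UMIs in KO neurons and 8148 in WT neurons, and 2121 in KO glia and 2466 in WT glia. The libraries shared 112 barcodes among the nuclei kept. Sema6d itself reached 694 UMIs per 1000000 in KO neurons and 639 in WT neurons. A lower Sema6d level therefore does not mark the library labelled KO, and as the deleted part is not known, this gives no check of the labels. KO stands throughout for the library with that label.

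Levels are UMIs per 1000000 UMIs of a gate (CPM), with exact 95% Poisson intervals in brackets. Ratios are log2 of KO CPM over WT CPM, given only where both libraries together held at least 20 UMIs. A ratio is called past the fold where the levels differ by at least 1.5-fold in either direction. All intervals cover counting error only and are too narrow where a few nuclei hold most UMIs. Over all neurons, 1 of the 4 genes, Tac2, was past the fold, against 12.5% of 18837 genes, with a median ratio of 0.05 over all of those genes.

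**Figure D1:**
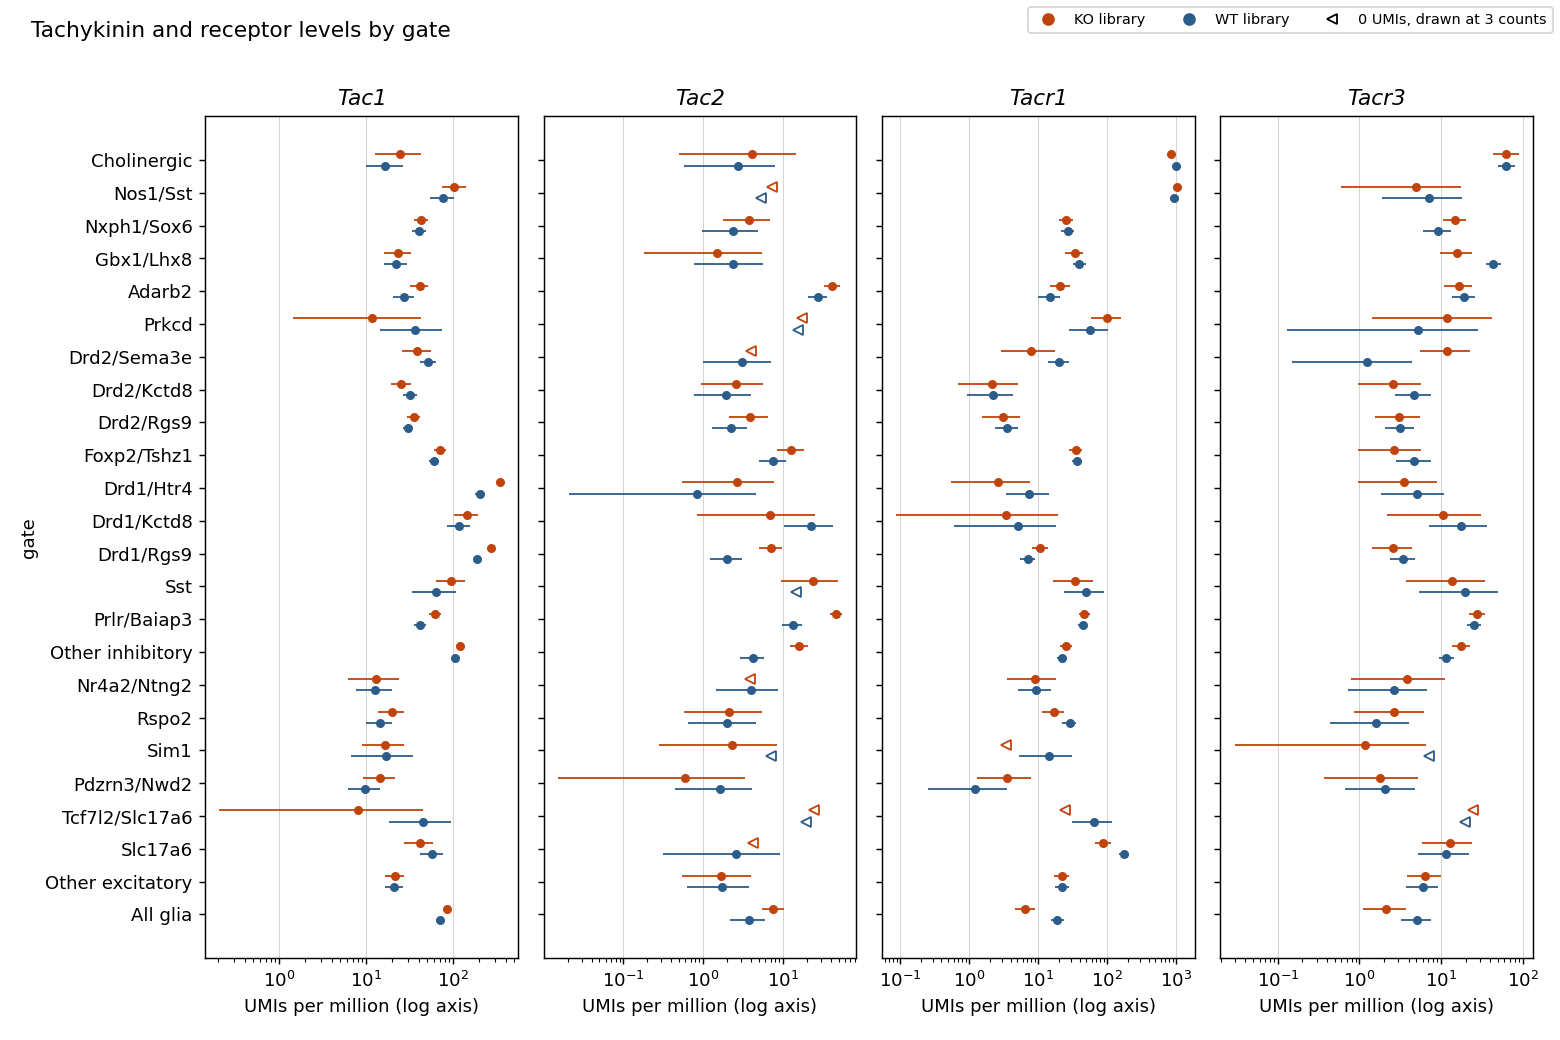
Level of each gene in CPM (log axis) in the neuron gates shown and in all glia, with the KO library above the WT library in each row. Points carry exact 95% Poisson intervals and open triangles mark 0 UMIs, drawn at the level of 3 counts. Tac1 is highest in the 3 Drd1 gates and Tacr1 in the Cholinergic and Nos1/Sst gates, near 1000 CPM.

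Tac1, the precursor gene of substance P and neurokinin A, was highest in neurons with Drd1. In the Drd1/Htr4 gate it reached 343 CPM in KO nuclei [310 to 378] and 204 CPM in WT nuclei [180 to 232]. In the Drd1/Rgs9 gate, which took the nuclei with Drd1 and the striatal regulator Rgs9 outside the other Drd1 gates, it reached 269 CPM [255 to 283] in KO and 186 CPM [178 to 194] in WT. The Drd1/Kctd8 gate followed with 143 CPM [103 to 194] in KO and 116 CPM [84.9 to 155] in WT. In KO the intervals of the first and second gate did not overlap, whereas in WT they did. With nuclei thinned to equal depth the order was reversed, at 267 CPM in Drd1/Htr4 and 283 CPM in Drd1/Rgs9 in KO. In WT the thinned levels were 193 CPM in Drd1/Htr4 and 200.2 CPM in Drd1/Rgs9. Without the nucleus richest in Tac1, the KO levels were 315 CPM in Drd1/Htr4 and 266 CPM in Drd1/Rgs9. No order of the Drd1/Htr4 and Drd1/Rgs9 gates is therefore read from either library. In both libraries the Drd1/Kctd8 interval overlapped that of the Nos1/Sst gate. These 3 gates held 42.4% of all Tac1 UMIs of the KO library and 41.1% of those of the WT library.

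Outside the Drd1 gates, Tac1 levels were lower. The Nos1/Sst gate had 103 CPM in KO and 75.5 CPM in WT, and the Foxp2/Tshz1 gate had 70.7 CPM in KO and 59.9 CPM in WT. Foxp2 and Tshz1 mark intercalated neurons among others. The Prlr/Baiap3 gate, with the prolactin receptor gene among its markers, had 61.6 CPM in KO and 41.9 CPM in WT. Inhibitory nuclei in no named gate had 118 CPM in KO and 104 CPM in WT. In the Drd2/Rgs9 gate, whose neurons carry the other main dopamine receptor of spiny neurons, the level was 35.2 CPM in KO and 30.5 CPM in WT. Excitatory neurons had 18.9 CPM in KO and 18.7 CPM in WT.

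Glia served as the check on free RNA. Per nucleus, they held 0.209 Tac1 UMIs in KO and 0.193 in WT. The glial and vascular gates were close to each other, from 0.174 to 0.247 per nucleus in KO and from 0.172 to 0.207 in WT, apart from 0.471 in the 17 WT fibroblast nuclei. Excitatory neurons held 0.231 Tac1 UMIs per nucleus in KO and 0.213 in WT, which is near the glial value at more than the glial depth. The Drd2/Rgs9 gate held 0.308 in KO and 0.254 in WT. The Drd1/Rgs9 gate held 2.52 in KO and 1.68 in WT, and the Drd1/Htr4 gate 3.73 in KO and 2.15 in WT, well above glia. On the CPM scale glia reached 85.5 CPM in KO and 70.7 CPM in WT, since their nuclei are shallow, so Tac1 levels below that in deeper neurons are best read per nucleus.

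**Figure D2:**
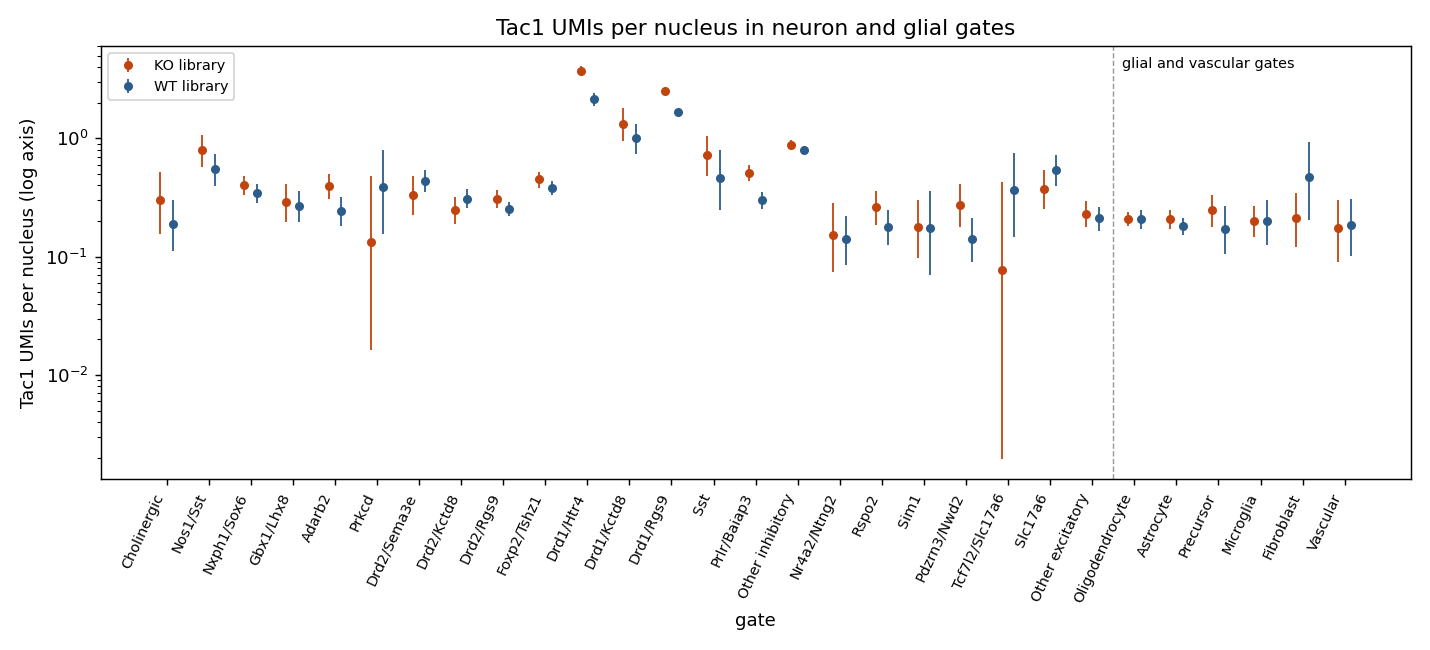
Tac1 UMIs per nucleus (log axis) in neuron gates and, right of the dashed line, in glial and vascular gates, with KO left of WT and exact 95% Poisson intervals. The 3 Drd1 gates stand at 1 or more UMIs per nucleus, and most excitatory gates sit at the glial level of about 0.2.

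Within the Drd1 gates Tac1 was spread over most nuclei. In the Drd1/Rgs9 gate 77.3% of 574 KO nuclei and 68.5% of 1109 WT nuclei had a Tac1 UMI, and the median nucleus held 2 UMIs in KO and 1 in WT. The highest nucleus held 17 UMIs in each library. After thinning to 2000 UMIs per nucleus, which left out no nucleus of this gate, the share was 38.0% [34.0 to 42.1, Clopper-Pearson] in KO and 28.4% [25.8 to 31.2] in WT. The thinned share was 13.8% in KO glia and 11.9% in WT glia, where 1028 KO and 533 WT nuclei were too shallow and left out. In the Drd2/Rgs9 gate it was 7.33% in KO and 6.04% in WT, below glia. The Foxp2/Tshz1 gate had 11.2% in KO and 12.2% in WT, the Prlr/Baiap3 gate 9.37% in KO and 7.35% in WT, and the Nos1/Sst gate 15.1% in KO and 10.3% in WT. These were near or below the glial shares, so Tac1 there was not separated from free RNA by this measure. Per nucleus, the Foxp2/Tshz1 gate held 0.450 Tac1 UMIs in KO and 0.381 in WT. The Prlr/Baiap3 gate held 0.508 in KO and 0.300 in WT. Both were above glia at more than the glial depth, and the part of free RNA was not tested. Nuclei with 3 or more Tac1 UMIs held 61.9% of the Tac1 UMIs in KO and 60.5% in WT in the Nos1/Sst gate, against 6.43% in KO glia and 5.57% in WT glia.

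Tac1 was higher in the KO library in both large Drd1 gates. The ratio was 0.53 [0.43 to 0.63] in the Drd1/Rgs9 gate, short of the fold, and 0.75 [0.51 to 0.98] in the Drd1/Htr4 gate, past it. With thinned nuclei the Drd1/Htr4 ratio was 0.47, short of the fold. A single KO nucleus of that gate held 40 of its 392 Tac1 UMIs, where the next held 13. In the Drd1/Htr4 gate Tac1 was the only one of the 4 genes with a ratio, and 18.3% of 9512 genes were past the fold there. In the Drd1/Rgs9 gate 2 of the 4 genes were past it, Tac2 and Tacr1, against 12.5% of 13655 genes. The Adarb2 gate gave a Tac1 ratio of 0.61 [0.07 to 1.15], from 41.0 CPM in KO and 26.9 CPM in WT, but -0.14 in the cluster that took its place. In the gate, the nuclei with 3 or more Tac1 UMIs were 6 in KO, with 29 of its 70 UMIs, and 1 in WT, with 5 of its 53. The Prlr/Baiap3 gate gave 0.56 [0.23 to 0.88], but 0.12 with a stricter gate and 0.27 in the cluster that it shared with Slc17a6 nuclei. Over all neurons Tac1 stood at 84.3 CPM in KO and 69.6 CPM in WT, a ratio of 0.28 [0.21 to 0.34]. The ratio in glia was also 0.28 [0.07 to 0.48], and the part of free RNA in the neuronal ratio was not tested. Drd1 moved the same way in the Drd1/Rgs9 gate, with 325 CPM in KO and 245 CPM in WT, while Rgs9 had 1148 CPM in KO and 1217 CPM in WT. The 5 astrocyte markers summed to 69.5 CPM in KO and 55.7 CPM in WT in this gate, the 6 microglial ones to 40.7 CPM in KO and 29.3 CPM in WT, and the 7 oligodendrocyte ones to 309 CPM in KO and 327 CPM in WT. The median mitochondrially encoded share of neurons was 0.282% in KO and 0.664% in WT. The part of glial RNA or of RNA quality in the Tac1 ratios was not tested.

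Tac1 was read beside the opioid precursor genes that spiny neurons carry. Prodynorphin (Pdyn), the dynorphin precursor gene, had a UMI in 33.8% of Tac1-positive and 20.8% of Tac1-negative KO nuclei of the Drd1/Rgs9 gate. In WT these shares were 32.1% and 24.1%. In the Drd1/Htr4 gate the shares were closer, at 29.8% of Tac1-positive and 27.3% of Tac1-negative KO nuclei, and 43.7% and 40.7% in WT. Pdyn itself had 54.8 CPM in KO and 50.9 CPM in WT in the Drd1/Rgs9 gate. In the Drd1/Kctd8 gate, with 31 KO and 46 WT nuclei, 58.1% of KO and 60.9% of WT nuclei had a Pdyn UMI.

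Tac2, the neurokinin B precursor gene, was sparse, with 393 UMIs in KO neurons and 263 in WT neurons. Among gates with at least 20 UMIs over both libraries, its levels were highest in the Prlr/Baiap3 and Adarb2 gates. The Prlr/Baiap3 gate had 46.2 CPM [38.5 to 55.0] in KO and 13.2 CPM [9.81 to 17.5] in WT. The Adarb2 gate, which takes interneurons with the marker Adarb2, had 41.6 CPM [32.4 to 52.4] in KO and 27.4 CPM [20.6 to 35.7] in WT. The intervals of these gates overlapped in KO and not in WT. The Drd1/Kctd8 gate had 6.98 CPM in KO from 2 UMIs and 22.7 CPM in WT from 9 UMIs. The Sst gate had 23.8 CPM in KO from 7 UMIs and 0 UMIs in WT, and the Foxp2/Tshz1 gate had 12.7 CPM in KO and 7.58 CPM in WT. No Tac2 UMI was seen in the Nos1/Sst gate, where 3 counts would be 7.34 CPM in KO and 5.27 CPM in WT. Glia had 7.63 CPM in KO and 3.72 CPM in WT, or 0.0186 UMIs per nucleus in KO and 0.0102 in WT.

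Few nuclei held most of the Tac2 UMIs of KO neurons, but not of WT neurons. In KO neurons, 41 of 4251 nuclei had 3 or more Tac2 UMIs and together held 62.1% of the Tac2 UMIs. In WT neurons, 17 of 7013 nuclei did, with 31.6% of the UMIs. Their share was thus 0.965% [0.693 to 1.31, Clopper-Pearson] of KO neurons and 0.242% [0.141 to 0.388] of WT neurons. In the Prlr/Baiap3 gate 14 of 331 KO nuclei were of this kind, with 108 of the 126 Tac2 UMIs, and 6 of 517 WT nuclei, with 25 of the 49. The highest nucleus of that gate held 17 Tac2 UMIs in KO and 6 in WT.

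Some of the Tac2 nuclei carried other genes that divide these gates. In the Adarb2 gate, nuclei with the interneuron peptide gene Vip had 196 Tac2 CPM [138 to 268] in KO and 133 CPM [85.2 to 198] in WT, and nuclei without a Vip UMI had 21.8 CPM in KO and 16.8 CPM in WT. A Vip UMI was found in 10 of the 25 KO nuclei with Tac2 and in 8 of the 19 WT nuclei with Tac2. In the Prlr/Baiap3 gate, 11 KO nuclei with the transcription factor gene Npas1 held 53 Tac2 UMIs, or 540 CPM, and 8 such WT nuclei held 10, or 135 CPM. Without an Npas1 UMI the level was 27.8 CPM in KO, from 73 UMIs, and 10.8 CPM in WT, from 39 UMIs. Split by the estrogen receptor gene Esr1, the order differed between libraries. Nuclei with Esr1 had 33.5 CPM in KO and 26.2 CPM in WT, and those without it 48.2 CPM in KO and 11.4 CPM in WT. Vip, Npas1 and Esr1 were chosen for these splits after the Tac2 values had been seen.

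Tac2 was higher in the KO library in each of the 5 of 22 named gates where a ratio could be formed. In gates too sparse for a ratio, the levels went both ways. Excitatory neurons together gave a ratio of 0.13 [-0.79 to 1.04], and down to -0.30 under the alternatives. The ratio over all neurons was 1.21 [0.98 to 1.44], from 9.78 CPM in KO and 4.22 CPM in WT. It was 1.80 [1.32 to 2.31] in the Prlr/Baiap3 gate, where it was the 1 of 4 genes past the fold against 13.4% of 12554 genes. In the Adarb2 gate it was 0.60 [0.07 to 1.14], and there both precursor genes but neither receptor were past the fold, against 14.7% of 11210 genes. With a stricter gate the Tac2 ratio there was 0.45, short of it. In the Drd1/Rgs9 gate the ratio was 1.83 [1.01 to 2.69], but the level was only 7.06 CPM in KO and 1.99 CPM in WT, below the CPM of glia. With thinned nuclei it was 0.95, and 3 KO nuclei held 19 of the 38 KO UMIs. Per nucleus this gate held 0.0662 Tac2 UMIs in KO and 0.0180 in WT, above glia. The Foxp2/Tshz1 gate gave 0.75 [-0.05 to 1.54], with 13.0% of genes past the fold, and the Drd2/Rgs9 gate gave 0.80 [-0.33 to 1.91], with 12.9%. With thinned nuclei these were 0.099 in Foxp2/Tshz1 and 0.16 in Drd2/Rgs9. Glia had a Tac2 ratio of 1.04 [0.20 to 1.94], from 43 UMIs in KO and 17 in WT. In the Prlr/Baiap3 gate the 5 astrocyte markers summed to 60.9 CPM in KO and 51.1 CPM in WT, the 6 microglial ones to 47.0 CPM in KO and 41.7 CPM in WT, and the 7 oligodendrocyte ones to 300 CPM in KO and 359 CPM in WT. The part of free RNA in the neuronal Tac2 ratios was not tested.

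**Figure D3:**
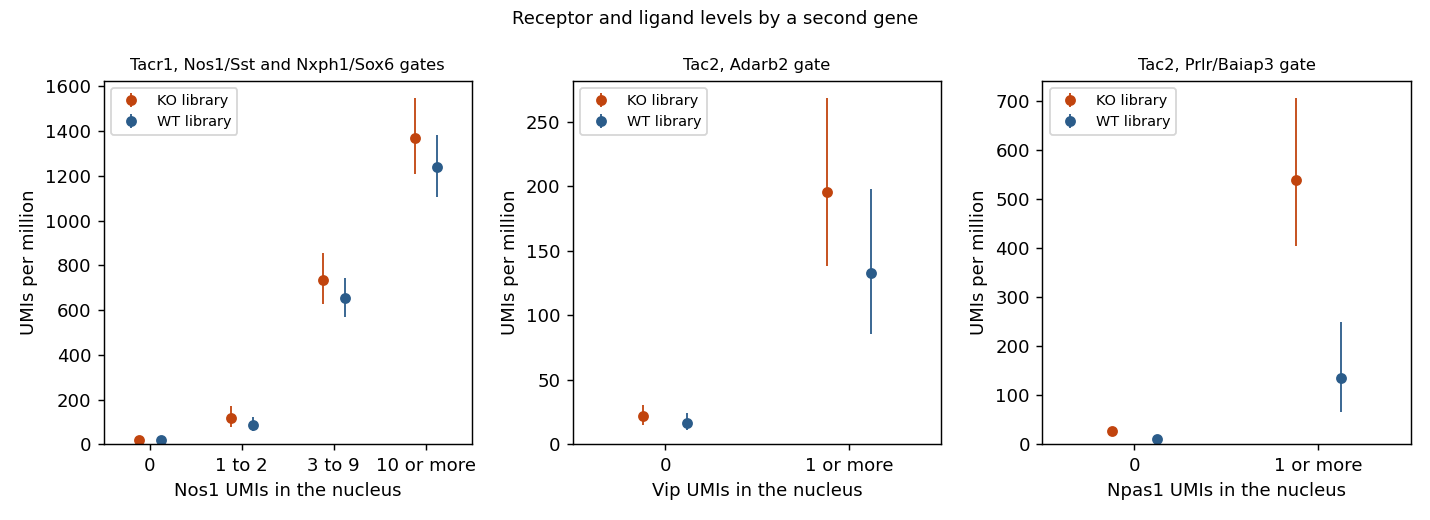
Levels in CPM by the UMIs of a second gene in the same nucleus, with KO left of WT and exact 95% Poisson intervals: Tacr1 by Nos1, Tac2 by Vip in the Adarb2 gate, and Tac2 by Npas1 in the Prlr/Baiap3 gate. Tacr1 is higher in each higher Nos1 class in both libraries, to 1369 CPM in KO and 1240 CPM in WT. The Nos1/Sst gate itself requires 3 or more Nos1 UMIs and was drawn after Tacr1 values were seen.

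Tacr1, the receptor gene for substance P, was concentrated in 2 rare groups of neurons. The Cholinergic gate, taken by the acetylcholine genes Chat, Slc5a7 and Slc18a3, had 854 CPM [774 to 940] in KO and 993 CPM [935 to 1054] in WT. The Nos1/Sst gate, taken by the nitric oxide synthase gene Nos1 with Sst, Chodl and Lhx6, had 1044 CPM [948 to 1148] in KO and 929 CPM [852 to 1012] in WT. The intervals of these gates did not overlap in KO and overlapped in WT. With stricter gates the Nos1/Sst level was 1250.0 CPM in KO and 1090.0 CPM in WT and the Cholinergic level 871 CPM in KO and 1018 CPM in WT, so that no order of the gates is read from WT. The cluster that held most Nos1/Sst nuclei, and also 55.5% of Nxph1/Sox6 nuclei, had 194 CPM in KO and 232 CPM in WT. The Cholinergic gate held 40 of 4251 KO neurons and 95 of 7013 WT neurons, with 20.8% of all Tacr1 UMIs of the KO library and 32.1% of those of the WT library. The Nos1/Sst gate held 53 KO and 78 WT neurons, with 21.1% of the Tacr1 UMIs in KO and 15.7% in WT.

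Nearly all nuclei of both gates carried Tacr1. It had a UMI in 35 of 40 KO and 87 of 95 WT cholinergic nuclei, and in 48 of 53 KO and 69 of 78 WT nuclei of the Nos1/Sst gate. The median cholinergic nucleus held 6.5 Tacr1 UMIs in KO and 8 in WT, and the median Nos1/Sst nucleus 6 in each. After thinning to 2000 UMIs the share was 60.0% in KO and 72.6% in WT in the Cholinergic gate, and 69.8% in KO and 69.2% in WT in the Nos1/Sst gate. Glia had 1.10% in KO and 2.02% in WT on the same scale.

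Among interneurons with Nxph1 or Nos1, Tacr1 was higher in nuclei with more Nos1 UMIs. In nuclei of the Nos1/Sst and Nxph1/Sox6 gates without a Nos1 UMI the Tacr1 level was 17.1 CPM in KO and 19.0 CPM in WT. With 1 to 2 Nos1 UMIs it was 118 CPM in KO and 85.6 CPM in WT, with 3 to 9 it was 735 CPM in KO and 652 CPM in WT, and with 10 or more it was 1369 CPM in KO and 1240 CPM in WT. The nuclei of the Nos1/Sst gate also carried the peptide genes Sst and Npy. A Npy UMI was found in 43 of the 48 KO nuclei with Tacr1 and in 60 of the 69 WT nuclei with Tacr1. A Tac1 UMI was found in 15 of 48 KO and 18 of 69 WT nuclei with Tacr1. The thinned share of nuclei with Tac1 in this gate, 15.1% in KO and 10.3% in WT, was near that of glia, so these joint counts do not separate Tac1 from free RNA. Per nucleus the gate held 0.79 Tac1 UMIs in KO and 0.55 in WT, against 0.209 in KO glia and 0.193 in WT glia. Its nuclei were deeper than glia, and the part of free RNA was not tested. The gate was drawn after Tacr1-rich nuclei had been seen to carry these genes, so its high Tacr1 level is a description. The rise of Tacr1 with Nos1 is a description too. The Nos1/Sst gate requires 3 or more Nos1 UMIs, so the step at 3 Nos1 UMIs is largely the step between the gates.

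Lower Tacr1 levels were found in excitatory nuclei with Slc17a6 and without Slc17a7, genes of different vesicular glutamate transporters. The Slc17a6 gate had 87.8 CPM [67.3 to 112] in KO and 178 CPM [149 to 210] in WT. In KO 7 of 77 nuclei with 3 or more UMIs held 71.0% of the Tacr1 UMIs, and in WT 14 of 81 held 88.4%. The small Prkcd gate, of 15 KO and 18 WT nuclei, had 99.9 CPM [58.2 to 160] in KO and 56.8 CPM [28.4 to 102] in WT. The Prlr/Baiap3 gate had 47.0 CPM in KO and 44.1 CPM in WT, the Foxp2/Tshz1 gate 35.1 CPM in KO and 37.1 CPM in WT, and the Gbx1/Lhx8 gate 33.8 CPM in KO and 39.7 CPM in WT. Spiny neuron gates were low, with 10.8 CPM in KO and 7.07 CPM in WT in the Drd1/Rgs9 gate, and 3.07 CPM in KO and 3.57 CPM in WT in the Drd2/Rgs9 gate. The gates with the most Tac1 were low in its receptor gene, and the Drd1/Htr4 gate had 2.62 Tacr1 CPM in KO and 7.51 CPM in WT.

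Glial Tacr1 was 6.57 CPM in KO and 19.0 CPM in WT, but 4 WT nuclei held 58 of the 87 WT UMIs. They had 28, 16, 9 and 5 Tacr1 UMIs and between 20 and 117 UMIs of the 6 general neuron markers, against a median of 2 in glia of either library. Without the glial nuclei with 3 or more Tacr1 UMIs, the level was 6.05 CPM in KO and 6.40 CPM in WT.

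KO over WT, Tacr1 differed little in its main groups. Over all neurons the ratio was -0.16 [-0.25 to -0.07], from 40.4 CPM in KO and 45.0 CPM in WT. In the Cholinergic gate it was -0.22 [-0.38 to -0.05], or -0.53 with thinned nuclei, and none of the 3 genes with a ratio there was past the fold, against 22.1% of 9010 genes. A single WT cholinergic nucleus held 107 Tacr1 UMIs, where the next held 48, and without it the WT level was 919 CPM. The richest KO cholinergic nucleus held 40 and the next 38, and the KO level given includes both. In the Nos1/Sst gate the ratio was 0.17 [-0.02 to 0.36], and neither of the 2 genes with a ratio was past the fold, against 22.6% of 7416 genes. In the Slc17a6 gate it was -1.02 [-1.47 to -0.57], 1 of 2 genes past the fold against 22.5% of 8704 genes. It was -0.14 with thinned nuclei, short of the fold. The cluster with most of these nuclei gave -0.37, but it also held 77.8% of Prlr/Baiap3 nuclei and does not stand for this gate alone. Without the gate's richest WT nucleus the WT level was 147 CPM. The richest KO nucleus of the gate held 10 of its 62 Tacr1 UMIs, and the KO level of 87.8 CPM includes that nucleus. The Rspo2 gate, with a marker of basolateral excitatory neurons, gave -0.76 [-1.41 to -0.14], with 16.0% of genes past the fold. The Drd2/Sema3e gate gave -1.34 [-2.89 to -0.07], with 21.8% of genes past the fold, on 6 UMIs in KO and 33 in WT.

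**Figure D4:**
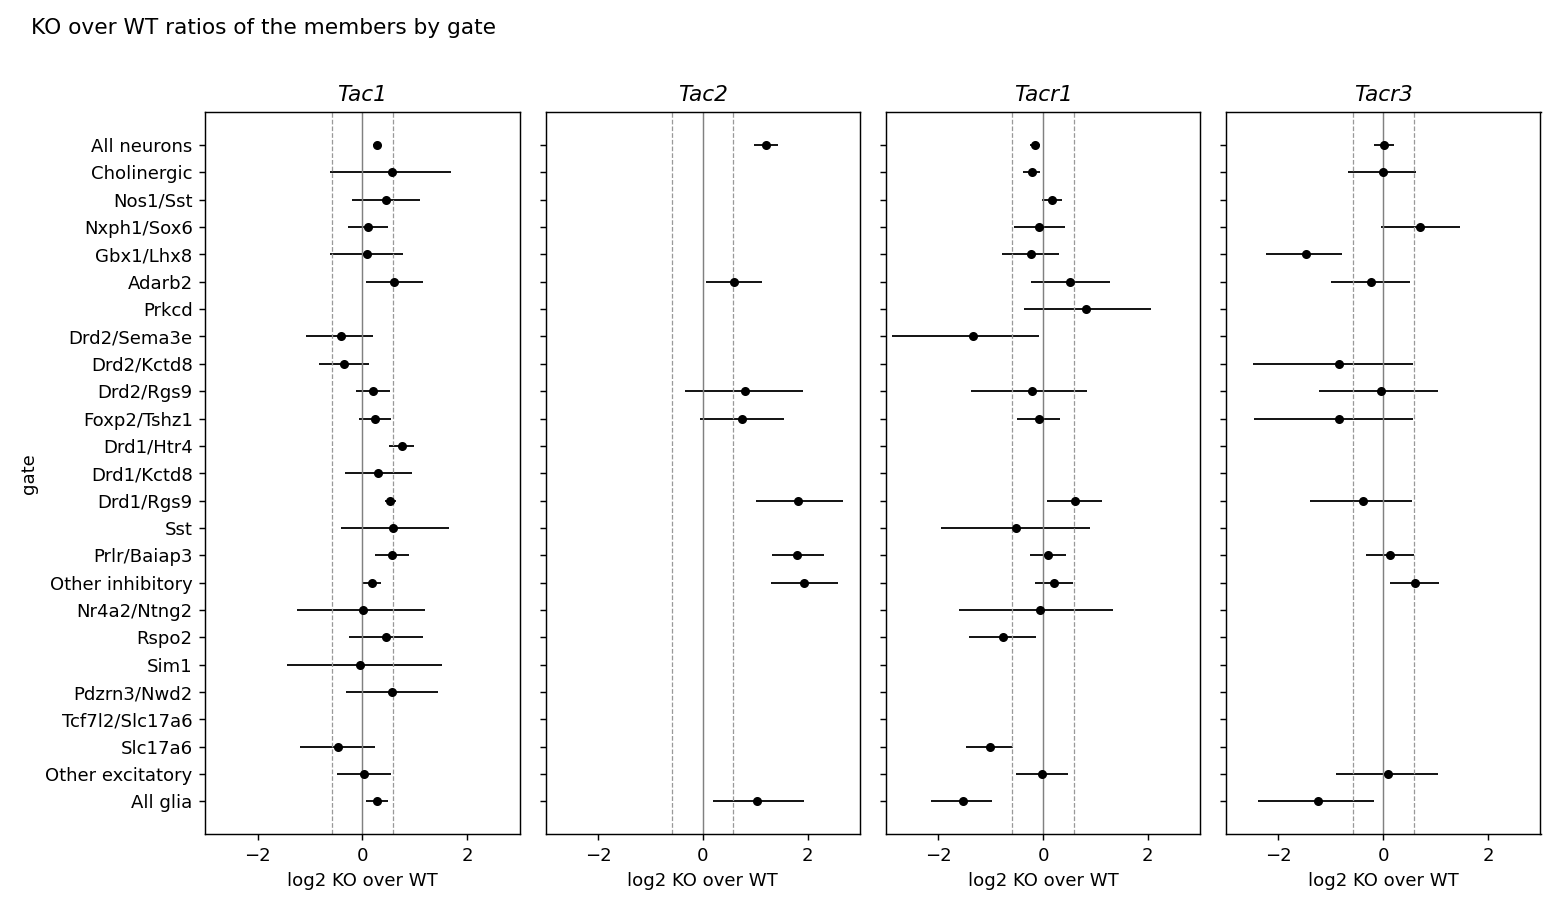
KO over WT ratios on the log2 scale with exact 95% intervals for counting error, by gate, for each gene. Solid lines mark 0 and dashed lines the 1.5-fold size, and gates with under 20 UMIs over both libraries are left blank. Tac2 points lie right of 0 in every gate drawn, and Tacr1 in the Slc17a6 gate lies left of the fold.

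Tacr3, the receptor gene for neurokinin B, was sparse, with 375 UMIs in KO neurons and 576 in WT neurons. Its highest level was again in the Cholinergic gate, with 63.0 CPM [42.8 to 89.5] in KO and 63.4 CPM [49.4 to 80.3] in WT. A Tacr3 UMI was seen in 13 of 40 KO and 32 of 95 WT cholinergic nuclei, and 11 of the KO and 31 of the WT nuclei also had a Tacr1 UMI. The Gbx1/Lhx8 gate had 15.8 CPM [9.76 to 24.1] in KO and 44.0 CPM [35.5 to 54.0] in WT, where its interval overlapped the cholinergic one. The Prlr/Baiap3 gate had 27.9 CPM [22.0 to 34.9] in KO, the second highest there, and 25.4 CPM [20.6 to 31.1] in WT, behind the Gbx1/Lhx8 gate. The Adarb2 gate had 16.4 CPM in KO and 19.3 CPM in WT, and the Nxph1/Sox6 gate 14.8 CPM in KO and 9.17 CPM in WT. The Drd1/Rgs9 and Drd2/Rgs9 gates held at most 3.07 CPM in KO and 3.39 CPM in WT, and glia 2.13 CPM in KO and 5.03 CPM in WT.

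Outside the Cholinergic gate, Tacr3 and the members read beside it met in few nuclei of the gates examined. In the Prlr/Baiap3 gate 2 of 28 KO nuclei with Tac2 and 4 of 25 WT nuclei with Tac2 had a Tacr3 UMI. In the Gbx1/Lhx8 gate 4 of 107 KO nuclei and 6 of 171 WT nuclei had both Tacr1 and Tacr3. That gate was taken by the homeobox genes Gbx1 and Lhx8 together with Adarb2, and 0 UMIs of the cholinergic gene Chat were found in its KO nuclei and 2 in its WT nuclei.

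Over all neurons the Tacr3 ratio was 0.01 [-0.18 to 0.20], and in the Cholinergic gate -0.01 [-0.67 to 0.62], or 1.06 with thinned nuclei. In the Gbx1/Lhx8 gate it was -1.48 [-2.24 to -0.78], from 21 UMIs in 107 KO nuclei and 92 UMIs in 171 WT nuclei, and -0.64 by cluster. It was the 1 of 3 genes past the fold there, against 16.1% of 11043 genes. The gap lay in rich nuclei, since 1 KO nucleus and 15 WT nuclei had 3 or more Tacr3 UMIs. The share of nuclei with a Tacr3 UMI was closer, at 15.9% in KO and 18.7% in WT. After thinning it was 6.54% [2.67 to 13.0] in KO and 5.26% [2.44 to 9.76] in WT, so the shares did not show the gap.

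The rest of the pathway was read from 19 genes. The remaining ligand and receptor genes were near absent from neurons, with 1 KO and 3 WT UMIs of Tac4 and 6 UMIs of Tacr2 in each library. Of the 17 genes with a ratio over all neurons, 6 were higher and 11 lower in KO, with a median of -0.01. Over all 18837 genes, 10806 were higher and 8031 lower, with a median of 0.05. None of the 17 was past the fold in either direction, against 12.5% of all genes. That share is over all genes with at least 20 UMIs in both libraries together, sparse ones included. The sparsest of the 17, Ace, had 163 UMIs in KO neurons and 216 in WT neurons. Among the genes that process peptide precursors, the convertase gene Pcsk1 had 44.3 CPM in KO and 44.4 CPM in WT, Pcsk2 had 677 CPM in KO and 760 CPM in WT, and the amidating enzyme gene Pam had 341 CPM in KO and 305 CPM in WT. Mme, which encodes the peptidase neprilysin that breaks down substance P, had 54.8 CPM in KO and 66.6 CPM in WT, a ratio of -0.28 [-0.36 to -0.21]. The lowest ratio, -0.40 [-0.43 to -0.38], was that of Itpr1, a calcium release channel downstream of phospholipase C. The highest, 0.37 [0.25 to 0.48], was that of the arrestin gene Arrb2.

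Genes with the most similar pattern were taken over the 18 neuron gates with at least 50 nuclei in each library, by the mean over the libraries of Pearson correlation of log2(CPM + 1), among 10451 genes. For Tac1 the first were Slc35d3, with 0.89, Cftr, with 0.89, and Pdyn, with 0.88, then Impg1 and Slc30a10. For Tacr1 they were Nos1, with 0.90, which defines one of the gates, then Mboat7, Hint1, Tmem130 and Timp2. For Tac2 the likeness was weaker, from 0.69 for the chemokine gene Cxcl14 to 0.66 for Gnl1, with Elp4, Cdc23 and Malsu1 between. For Tacr3 it ran from 0.83 for Snx8 to 0.80 for Mirg, with Pstk, Sema3c and Btbd11 between. The Cholinergic gate held under 50 KO nuclei and did not enter, and gates of 1 library share depth and free RNA.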

How the data were processed

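Nuclei from the amygdala were profiled in 2 samples, 1 library per genotype, with version 2 of the 10x 5′ kit. Per the labels, the authors used Cell Ranger 6.0.0 and mm10, and deposited raw UMI counts per gene and barcode. The annotation and how nuclei were called are not stated there. Symbols matched 32158 identifiers. Barcodes under 500 genes (143 KO, 12 WT), above 5% mitochondrially encoded UMIs (428 KO, 259 WT) and Scrublet doublets (222 KO, 422 WT, scanpy 1.11.5) were left out. Depth after filtering was a median of 6418 UMIs in KO and 7196 in WT. Gates used UMI minimums of marker genes, applied in a fixed order, and 1354 KO and 1686 WT nuclei fell in no gate. UMIs were summed per gate. No count model was fitted, and shares used nuclei thinned to 2000 UMIs. A count of 0 was read as up to 3 counts. The ratio and its interval were tested on simulated data.

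The members, lists and gates were chosen with earlier results of these data known. The gate minimums were revised several times after member levels by gate had been seen, and the Nos1/Sst, Gbx1/Lhx8, Drd1/Htr4, Drd1/Kctd8 and Slc17a6 gates, among others, took their form then, so their levels are descriptions. Values of 1 gate are not reported here. Named genes were the 4 members in the other gates, the pathway list and the 5 most similar genes per member. Alternatives were other gene minimums, doublets kept, stricter gates, clusters (Leiden, resolution 1, leidenalg 0.10.2) built without the members, thinned nuclei, median-of-ratios scaling, equal gate weights and totals without mitochondrially encoded UMIs.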

Additional observations from a re-analysis of the deposited data

Results flagged for a closer look

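Tacr1 ratios had opposite signs in different neuron gates, though not under every alternative. Its KO over WT ratio was 0.61 in the Drd1/Rgs9 gate, from 10.8 CPM in KO and 7.07 CPM in WT, and -1.34 in the Drd2/Sema3e gate, -0.76 in the Rspo2 gate and -1.02 in the Slc17a6 gate. Each was past the fold with a counting interval on 1 side of 0. With clusters in place of gates the Drd1/Rgs9 value was -0.37, the same sign as in the other 3 gates. That cluster also held most Drd1/Htr4 nuclei. With doublets kept the Drd1/Rgs9 value was 0.20. With thinned nuclei it was 1.29, and the Slc17a6 value was -0.14. The difference between the gates was not tested, since there is 1 library per genotype. Glia had 6.57 CPM in KO and 19.0 CPM in WT, or 6.05 CPM in KO and 6.40 CPM in WT without the nuclei that held 3 or more Tacr1 UMIs. In the Drd1/Rgs9 gate, 4 KO and 8 WT nuclei had 3 or more Tacr1 UMIs, and the highest held 9 UMIs in KO and 5 in WT.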

How the results depend on the processing

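No paired analysis was possible because each genotype has 1 library. Of 121 alternative values for 13 main ratios, 111 stayed within the counting interval and 114 kept their sign. Changing the gene minimum left ratios and levels the same or nearly so, which raises these counts and those below. With clusters in place of gates, Tacr1 gave -0.26 for Nos1/Sst and -0.37 for Slc17a6, and Tacr3 gave -0.64 for Gbx1/Lhx8. Tac1 for Adarb2 (-0.14) and Tacr1 for Drd1/Rgs9 (-0.37), both past the fold as reported, changed sign by cluster. Nos1/Sst and Nxph1/Sox6 shared a cluster, as did Drd1/Htr4 and Drd1/Rgs9, and Slc17a6, Prlr/Baiap3 and Sst. Their values by cluster are therefore not those of the named gate alone. Of 440 values for the 49 minor ratios, 400 kept their sign and 411 stayed within the interval. With thinned nuclei, Tacr1 gave 0.057 over all neurons, -0.53 in Cholinergic and -0.14 in Slc17a6, Tac1 0.47 in Drd1/Htr4, Tac2 2.34 in Prlr/Baiap3 and Tacr3 1.06 in Cholinergic. Equal gate weights gave Tac1 0.38 over all neurons. Of 126 alternative levels, 98 stayed within their interval. Stricter gates gave Tac1 200.5 CPM in WT Drd1/Rgs9, Tac2 64.5 CPM in KO Prlr/Baiap3, Tacr1 1250.0 CPM in KO and 1090.0 CPM in WT Nos1/Sst, and Tacr3 54.4 CPM in WT Gbx1/Lhx8. Clusters gave Tac1 277 CPM in KO Drd1/Htr4, Tac2 67.9 in KO and 40.4 in WT Adarb2 and 26.0 in KO and 8.88 in WT Prlr/Baiap3, Tacr1 194 in KO and 232 in WT Nos1/Sst and 50.2 in KO and 64.8 in WT Slc17a6, and Tacr3 29.8 in KO Gbx1/Lhx8. Thinning gave Tac1 267 in KO Drd1/Htr4 and 283 in KO and 200.2 in WT Drd1/Rgs9, Tac2 71.0 in KO and 46.1 in WT Adarb2 and 7.74 in WT Prlr/Baiap3, Tacr1 762 in KO and 1100.0 in WT Cholinergic and 123 in KO and 136 in WT Slc17a6, and Tacr3 42.1 in WT Cholinergic. Without the WT nucleus richest in Tacr1, an alternative chosen after seeing the data, the WT level was 919 CPM in Cholinergic and 147 CPM in Slc17a6. The Tacr1 levels given for these gates in KO keep their richest nucleus. Thinning weights nuclei equally, and the cause of the other moves was not tested. With a minimum of 1 UMI, 2 pathway genes were past the fold. Sparse UMIs limit Tac2 and Tacr3 in most gates, and 1 library per genotype limits every ratio.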

Other observations

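Among other neuropeptide genes, chosen after values had been seen, Penk, Npy and Sst were higher in the KO library in gates where they were high. Pdyn, Vip and Cck had counting intervals that included 0 in the gate read for each. Over all neurons the ratios were 0.50 [0.41 to 0.60] for Cck, 0.27 [0.06 to 0.48] for Vip and -0.12 [-0.25 to 0.004] for Pdyn. They were 0.61 for Npy, 0.47 for Sst and 0.26 for Penk. Penk, the enkephalin precursor gene, had 2142 CPM in KO and 1223 CPM in WT in the Drd2/Rgs9 gate, a ratio of 0.81 [0.76 to 0.85] where 12.9% of genes were past the fold, and 2091 CPM in KO and 1229 CPM in WT in the Drd2/Kctd8 gate, a ratio of 0.77. In the Nos1/Sst gate, Npy had 2348 CPM in KO and 1050 CPM in WT, a ratio of 1.16 [1.01 to 1.31], and Sst 3301 CPM in KO and 1902 CPM in WT, a ratio of 0.80, where 22.6% of genes were past the fold. Pdyn in the Drd1/Rgs9 gate gave 0.11 [-0.10 to 0.32], Vip in the Adarb2 gate 0.25 [-0.01 to 0.50] and Cck in the Rspo2 gate -0.05 [-0.38 to 0.28]. In glia the ratios were 0.57 [0.33 to 0.82] for Cck, 0.42 for Vip, 0.35 for Npy, -0.0012 for Sst, -0.12 for Penk and -0.51 [-0.94 to -0.07] for Pdyn, and their part in the neuronal ratios was not tested.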
